A study of Mus musculus with 6 samples.

Results

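Most of the genes described here make, load, supply and break down acetylcholine, or move and use its precursor choline. They were measured in group 2 innate lymphoid cells (ILC2s). ILC2s are tissue lymphocytes that release type 2 cytokines without an antigen receptor. The 10 genes, chosen by name with earlier results of these data known, were Chat, Slc18a3, Slc5a7, Ache, Slc44a1, Slc44a2, Chka, Chkb, Pla2g15 and Slc22a5. Among them, Pla2g15 stands for lysosomal phospholipid breakdown and Slc22a5 for carnitine uptake. All 10 were found among the 27179 Entrez genes of the count table, and 9 had enough counts to be tested. Mouse ILC2s had been sorted through a Chat positive gate (3 libraries) or a Chat negative gate (3 libraries). The libraries of each gate carry the replicate numbers 1 to 3. Mouse strain, age, tissue, any treatment and the way Chat was detected for the sort are all not given in the sources used here. No label says whether the 3 libraries of a gate are from different animals, and the spread on which the p-values rest may therefore be technical.

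Acetylcholine is made from choline and acetyl-CoA by choline acetyltransferase, the product of Chat. In neurons, choline enters through the high-affinity transporter encoded by Slc5a7, the product of Slc18a3 loads acetylcholine into vesicles, and acetylcholinesterase, encoded by Ache, splits it outside the cell. Lymphocytes can also make acetylcholine, and in most cells choline enters through transporters such as those of the Slc44 family and is phosphorylated by choline kinases for membrane phospholipid synthesis.

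Chat and Slc18a3 share a locus, and the sequence before each start is shown because these were the members with the largest differences between the gates. Chat (Entrez 12647) lies on mm10 chromosome 14, minus strand, from 32408203 to 32465909. Slc18a3 (Entrez 20508) lies on the same strand from 32462437 to 32464850, and its start is 1059 bases downstream of that of Chat. GENCODE lists 8 Chat transcripts on this build, of which 4 hold Slc18a3 in intron 1, and no Chat exon covers it. Slc5a7 (chromosome 17, 54273590 to 54299038, minus strand) is added because it had no count in any library. The sequences are RefSeq's (GRCm38.p6), 5′ to 3′ on the gene's strand, with matches to a GC box (GGGCGG, either strand) in capitals. The Chat stretch (chr14:32465990-32466159) stops 80 bases before the RefSeq start, where a longer annotated exon begins. Those of Slc18a3 (chr14:32464851-32465100) and Slc5a7 (chr17:54299035-54299284) run up to the start in RefSeq's promoter table, which for Slc5a7 lies a few bases inside the gene span given above.
Chat: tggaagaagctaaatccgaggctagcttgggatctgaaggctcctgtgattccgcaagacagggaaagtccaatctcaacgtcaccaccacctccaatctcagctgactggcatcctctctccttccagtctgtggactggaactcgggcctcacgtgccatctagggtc
Slc18a3: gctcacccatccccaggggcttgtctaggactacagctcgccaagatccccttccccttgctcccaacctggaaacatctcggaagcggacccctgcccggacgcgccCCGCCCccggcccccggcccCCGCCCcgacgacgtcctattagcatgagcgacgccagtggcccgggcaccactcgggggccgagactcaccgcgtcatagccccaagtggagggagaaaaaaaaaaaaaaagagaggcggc
Slc5a7: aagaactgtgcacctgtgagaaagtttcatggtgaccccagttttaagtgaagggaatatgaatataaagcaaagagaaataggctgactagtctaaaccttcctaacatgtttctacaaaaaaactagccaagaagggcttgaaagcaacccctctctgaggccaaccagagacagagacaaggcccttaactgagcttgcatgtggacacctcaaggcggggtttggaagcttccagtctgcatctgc
The 250 bases before the Slc18a3 start held 2 GC boxes, and those before the Chat and Slc5a7 starts held 0. The same letters stood in 32.7% of all 32851 RefSeq promoter windows of that length. Other motifs were searched on either strand, namely AGATAA (in 9.99% of windows), TGANTCA (6.75%), TTCNNNGAA (7.02%) and AGGTCA (14.0%). None of these stood in the windows of Chat, Slc18a3 or Slc5a7.

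Libraries held 37154269 to 50361306 counts in Chat positive and 42503612 to 44061509 counts in Chat negative cells. Levels are CPM, counts scaled to a common library total, from library sizes adjusted with TMM factors, and 12967 genes were tested with edgeR. The libraries numbered 2 stood apart in both gates. A test of the replicate number called 32.5% of all genes at an adjusted p below 0.05, and results that changed without these libraries are given both ways. The ILC2 marker list, which holds Gata3, Il7r and Il5, summed to 21128 to 27481 CPM in Chat positive and 19493 to 22124 CPM in Chat negative libraries (n = 3 each, exact permutation p = 0.2, two-sided). In 3 of 3 numbers the Chat positive library had the higher sum. With the replicate block edgeR called 2 of the 13 ILC2 markers, where it called 0.339% of all tested genes. These were Il5 (log2 change 0.65, adjusted p = 0.0472) and the IL-33 receptor gene Il1rl1 (0.55, adjusted p = 0.0420), both higher. Neither passed with the block in limma-voom or without robust dispersions, and of these 2 only Il1rl1 passed in DESeq2 with the block. Without the block edgeR called 0 of 13, with 3 at an unadjusted p below 0.05, as had 2.43% of all tested genes. Il5 was the largest part of the sum, averaging 11183 CPM in Chat positive and 7010 CPM in Chat negative libraries. Of the 13 log2 changes, 8 were above 0 and 5 below. Gata3, Il7r and Thy1 were lower in Chat positive cells for 3 of 3 numbers (log2 changes -0.10, -0.24 and -0.40). The share of all tested genes with the same direction at every number was not counted, and no label pairs the libraries of a number. Agreement over 3 of 3 numbers is thus a description, here and below. B cell markers, nearly all Cd79b, summed to 68.6 to 85.9 CPM in Chat positive and 66.2 to 74.4 CPM in Chat negative libraries (n = 3 each, exact permutation p = 0.3). T cell markers summed to 43.2 to 55.5 CPM in Chat positive and 38.7 to 53.6 CPM in Chat negative libraries (n = 3 each, exact permutation p = 0.7). Both sums were also higher in Chat positive cells for 3 of 3 numbers. The genes of the T cell list did not move together. Cd28 was higher for 3 of 3 numbers (log2 change 0.39), while Cd3d was lower for 3 of 3 (-0.69) without overlap of the gates. Cd3e and Cd3g were each lower for 2 of 3 numbers (log2 changes -0.39 and 0.0023). In edgeR 0 of these 4 genes passed.

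Between the gates, edgeR's quasi-likelihood test called 1 of the 9 tested members at an adjusted p below 0.05, namely Chat, which was 9.28-fold higher in Chat positive cells. Slc18a3 was 7.81-fold higher without passing over all genes. Slc5a7 was not detected. The other 7 members differed by at most 0.59 on the log2 scale. Over all 12967 tested genes, 0.00771% were called, which is Chat alone, and 2.43% (315 genes) had an unadjusted p below 0.05, as did 3 of the 9 members (Chat, Slc18a3 and Pla2g15). The gates did not overlap for 3 of the 9 members and for 8.14% of all tested genes. With the replicate number as a block, 0 of the 9 members and 0.339% of all tested genes were called in edgeR, while 4 of the 9 members (these 3 and Slc44a2) and 16.5% of all tested genes had an unadjusted p below 0.05.

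**Figure D1:**
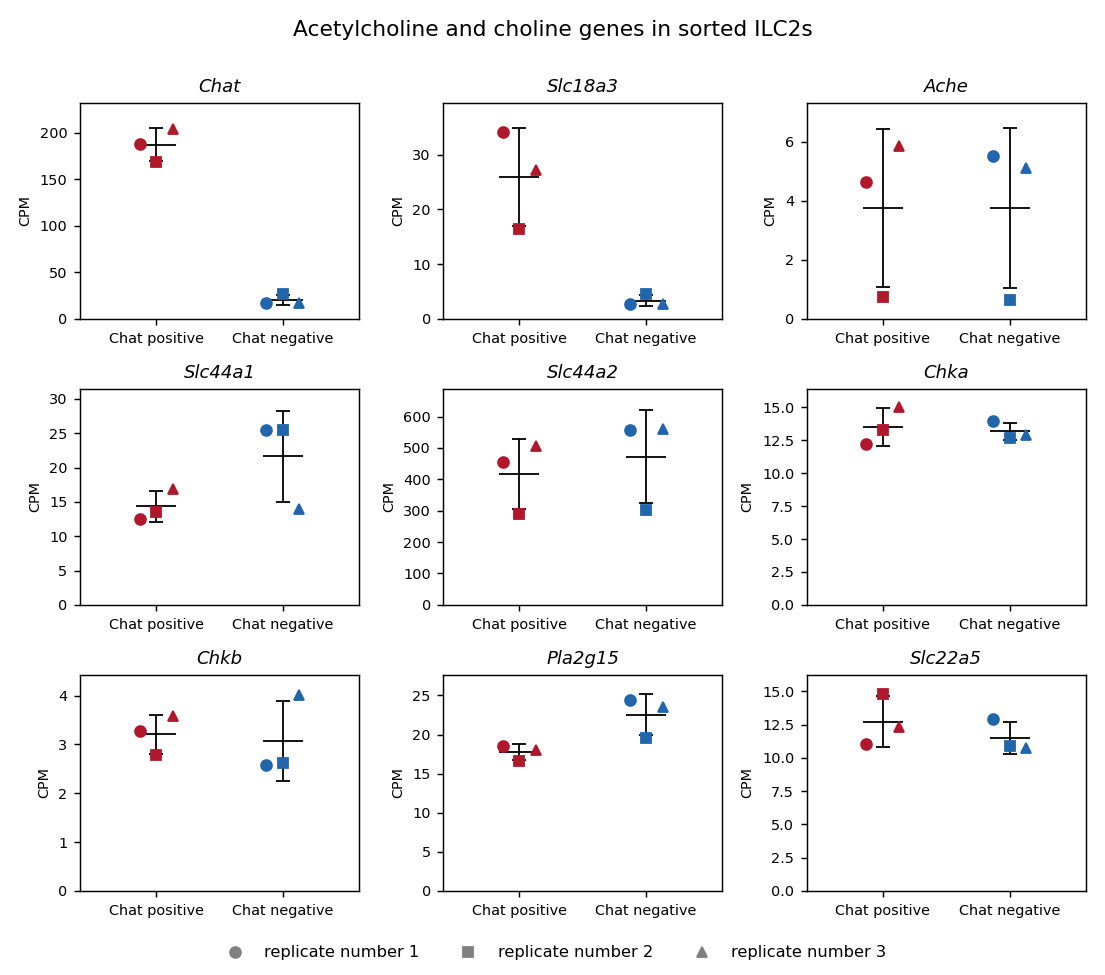
Level (CPM, linear axes from 0) of the 9 tested members in each library, with Chat positive libraries at the left in red and Chat negative libraries at the right in blue. The marker shape gives the replicate number, and bars give mean ± SD of 3 libraries. Chat and Slc18a3 separate the gates, while Ache and Slc44a2 are lowest in number 2 of both gates.

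Chat had 188, 169 and 204 CPM in Chat positive libraries 1, 2 and 3, against 16.5, 26.5 and 17.5 CPM in Chat negative libraries 1, 2 and 3. The gates did not overlap, and every Chat negative library still held at least 700 Chat counts. Because cells were sorted by Chat, this comparison checks the labels. The log2 change was 3.21 (SE 0.21, 95% interval 2.71 to 3.72), with an edgeR adjusted p of 0.0174. Chat was 11.4-fold higher in Chat positive than in Chat negative cells for number 1, 6.37-fold for number 2 and 11.7-fold for number 3. Number 2 thus had the lowest Chat level in the positive gate and the highest in the negative gate. In sorted bulk RNA, fewer Chat-expressing cells and less Chat RNA per cell cannot be told apart. Per kilobase of longest transcript, Chat stood at percentiles 90.7 to 92.7 of the genes with a count in Chat positive libraries and at percentiles 51.2 to 61.0 in Chat negative libraries.

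The Chat call was lost with the replicate number as a block (log2 change 3.24, edgeR adjusted p = 0.0961), though not when that fit left out robust dispersions (0.00241). It was also lost in edgeR without Chat positive 1 (adjusted p = 0.247), Chat positive 3 (0.127), Chat negative 1 (0.190) or Chat negative 3 (0.198), with log2 changes between 3.09 and 3.21. Over all alternatives its adjusted p ran from 7.20e-42 in DESeq2 to 1.00.

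Among other cell types that can express Chat, markers of tuft cells and neurons were measured beside it. The tuft cell genes Pou2f3 and Trpm5 were at 0 in all 6 libraries. The list of 8 tuft and epithelial markers summed to 114 to 177 CPM in Chat positive and 104 to 213 CPM in Chat negative libraries (n = 3 each, exact permutation p = 0.6), led by Avil and Epcam. Avil had 119, 79.7 and 106 CPM in Chat positive libraries and 124, 66.7 and 109 CPM in Chat negative libraries. Epcam had 55.2, 31.5 and 52.7 CPM in Chat positive libraries, against 82.4, 34.9 and 87.0 CPM in Chat negative libraries, and was thus lower in Chat positive cells for 3 of 3 numbers. The change of -0.55 on the log2 scale (SE 0.37) had an edgeR adjusted p of 1.00, 0.109 with the replicate block, and 0.00361 in DESeq2 with the block. Cdh1 of the same list was also lower for 3 of 3 numbers (log2 change -1.61, edgeR adjusted p = 1.00). Krt18 of that list lay the other way for 3 of 3 numbers (log2 change 0.28), also without passing. Krt8 and Dclk1 had at most 2 counts in any library. Neuron and glia markers summed to 4.10 to 10.7 CPM in Chat positive and 3.77 to 13.6 CPM in Chat negative libraries (n = 3 each, exact permutation p = 0.9). The part of such cells in the Chat level was not tested, nor was that of T and B cells, whose marker sums are given above. With 3 libraries against 3, no exact test here can give a p below 0.1.

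Slc18a3, the vesicular acetylcholine transporter, had 34.2, 16.4 and 27.2 CPM in Chat positive libraries 1, 2 and 3, against 2.72, 4.50 and 2.73 CPM in Chat negative libraries. Again the gates did not overlap, and number 2 was lowest in the positive gate and highest in the negative gate. Non-overlapping gates with Chat positive higher were seen for 4.53% of all tested genes. The log2 change was 2.96 (SE 0.35, 95% interval 2.14 to 3.79), with an edgeR adjusted p of 0.403, 0.146 with the replicate block, and a range of 2.51e-14 to 1.00 over the alternatives. DESeq2 called it, and so did edgeR without both libraries numbered 2 (log2 change 3.49, adjusted p = 0.00227).

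The Slc18a3 level followed that of Chat within a narrow band in Chat negative cells. There were 18.2, 9.70 and 13.3 Slc18a3 counts per 100 Chat counts in Chat positive libraries 1, 2 and 3, and 16.4, 17.0 and 15.6 in Chat negative libraries 1, 2 and 3. The means were 13.7 ± 4.24 in Chat positive and 16.4 ± 0.671 in Chat negative libraries (SD, n = 3 each, exact permutation p = 0.4). Slc18a3 lies inside an intron of some annotated Chat transcripts on the same strand, so reads from unspliced Chat RNA could count towards it. Their part in the Slc18a3 counts was not tested. Gm2990, an antisense RNA annotated on the opposite strand of the locus, shares no exon with Chat.

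No neighbour of the locus passed the test. Of 10 genes lying within 250 kb of Chat, both included, 7 were tested and Chat alone passed. Ercc6, a DNA repair helicase and the nearest tested gene upstream, had 66.5, 67.1 and 75.3 CPM in Chat positive libraries, against 57.1, 59.6 and 60.8 CPM in Chat negative libraries. Its gates did not overlap, but its log2 change of 0.23 (SE 0.10) had an edgeR adjusted p of 1.00. On the other side, Ogdhl, Parg, Timm23 and Ncoa4 had log2 changes of -0.23, -0.17, -0.11 and -0.14. The neighbours 1700024G13Rik, Prrxl1 and 3425401B19Rik were too low to test.

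**Figure D2:**
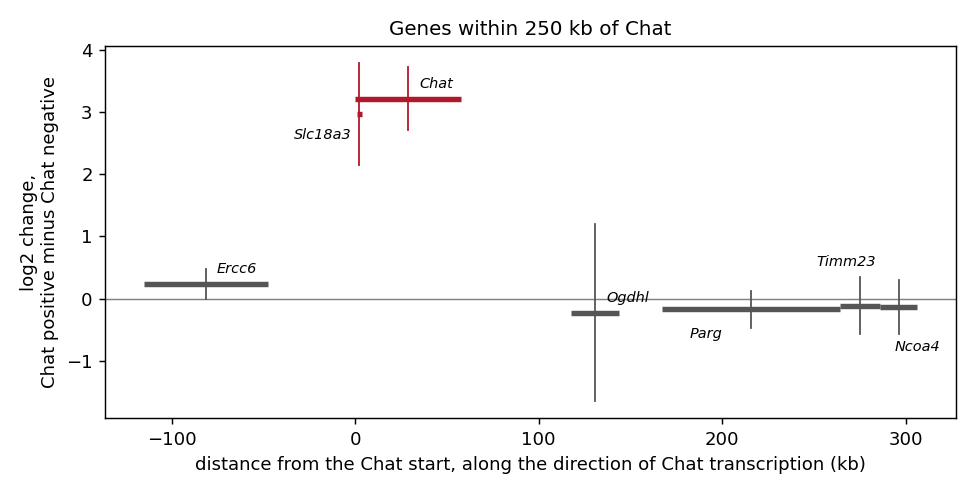
Log2 change between the gates (Chat positive minus Chat negative) against distance from the Chat start in kb, along the direction of Chat transcription, for the 7 tested genes within 250 kb. Thick lines span each gene and thin lines give the 95% interval. Chat (3.21) and Slc18a3 (2.96) stand apart from the 5 neighbours, which lie between -0.23 and 0.23.

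By the pattern of log2 CPM over the 6 libraries, the 5 genes most like Chat among 8347 with a mean of at least 10 CPM were Rabggtb (Pearson r 0.99), Hemk1 (0.99), Slc18a3 (0.98), Csgalnact2 (0.98) and Smim8 (0.97). All 6 points share the split into gates that Chat defines, so these are genes that separated the gates evenly, and the values are a description. Apart from Slc18a3 their changes were small. Rabggtb, a subunit of the enzyme that attaches lipid tails to Rab proteins, had 29.1, 28.2 and 29.3 CPM in Chat positive libraries, against 24.6, 25.5 and 25.3 CPM in Chat negative libraries.

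Slc5a7, the high-affinity choline transporter of cholinergic neurons, had 0 counts in all 6 libraries. At 0 counts the upper limit is 3 counts, equal to 0.0583 to 0.0811 CPM depending on the library, for counting error alone.

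Choline uptake was represented by the transporters Slc44a1 and Slc44a2, neither of which passed the test. Slc44a1 (Entrez 100434, chromosome 4, 53440387 to 53622478) had 12.6, 13.6 and 16.9 CPM in Chat positive libraries 1, 2 and 3, against 25.4, 25.5 and 14.0 CPM in Chat negative libraries 1, 2 and 3. Numbers 1 and 2 were 2.02-fold and 1.88-fold lower in Chat positive cells, and number 3 lay the other way, so the gates overlapped. The log2 change was -0.59 (SE 0.26, 95% interval -1.22 to 0.03), with an edgeR adjusted p of 1.00. It was -0.96 without both libraries numbered 3 and -0.38 without both libraries numbered 1 (edgeR adjusted p = 1.00 in either fit).

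Slc44a2 (Entrez 68682, chromosome 9, 21320719 to 21355028) was the most abundant member in both gates, at 102 ± 27.7 CPM per kilobase in Chat positive and 116 ± 36.2 in Chat negative cells (SD, n = 3 each). It had 456, 290 and 505 CPM in Chat positive libraries, against 556, 301 and 559 CPM in Chat negative libraries. Chat positive was the lower gate for 3 of 3 numbers, by 1.04-fold to 1.22-fold, although the gates overlapped. The log2 change was -0.18 (SE 0.29, 95% interval -0.87 to 0.51), with an edgeR adjusted p of 1.00, and of 0.210 with the replicate block. Per kilobase, Slc44a2 exceeded Slc44a1 by 31.4 ± 8.05-fold in Chat positive and 26.4 ± 15.3-fold in Chat negative libraries (n = 3 each, exact permutation p = 0.8).

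The choline kinases Chka and Chkb, which commit choline to phosphatidylcholine synthesis, were close in the 2 gates. Chka (Entrez 12660, chromosome 19, 3851585 to 3894369) had 12.2, 13.3 and 15.0 CPM in Chat positive libraries and 13.9, 12.7 and 12.9 CPM in Chat negative libraries. Chkb (Entrez 12651, chromosome 15, 89426349 to 89429927) had 3.27, 2.78 and 3.58 CPM in Chat positive libraries and 2.58, 2.63 and 4.01 CPM in Chat negative libraries. Both overlapped between the gates. The log2 changes were 0.04 (95% interval -0.32 to 0.39) for Chka and 0.06 (-0.59 to 0.72) for Chkb, each with an edgeR adjusted p of 1.00, with the wider interval for Chkb. Per kilobase, Chka exceeded Chkb by 2.24 ± 0.279-fold in Chat positive and 2.37 ± 0.599-fold in Chat negative libraries (n = 3 each, exact permutation p = 0.7). That fold rests on the length used, since per kilobase of all annotated exons it was 0.951, 1.22 and 1.07 in Chat positive libraries and 1.38, 1.23 and 0.820 in Chat negative libraries. Chkb shares exon sequence with the annotated readthrough gene Gm44502, so its counts are uncertain.

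Pla2g15 (Entrez 192654, chromosome 8, 106150354 to 106164718), a lysosomal phospholipase that breaks down phosphatidylcholine, had 18.6, 16.6 and 18.03 CPM in Chat positive libraries, against 24.5, 19.6 and 23.6 CPM in Chat negative libraries. Every Chat positive library lay below every Chat negative library, as for 3.61% of all tested genes. The log2 change was -0.35 (SE 0.14, 95% interval -0.69 to -0.00), and it was lower in Chat positive cells for 3 of 3 numbers, by 1.18-fold to 1.32-fold. It did not pass, with an edgeR adjusted p of 1.00, and 0.163 with the replicate block.

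Slc22a5 (Entrez 20520, chromosome 11, 53864542 to 53891796) encodes a carnitine transporter that also carries organic cations. It had 11.1, 14.8 and 12.3 CPM in Chat positive libraries, against 12.9, 10.9 and 10.7 CPM in Chat negative libraries. The gates overlapped, and the log2 change was 0.15 (95% interval -0.27 to 0.56) with an edgeR adjusted p of 1.00.

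**Figure D3:**
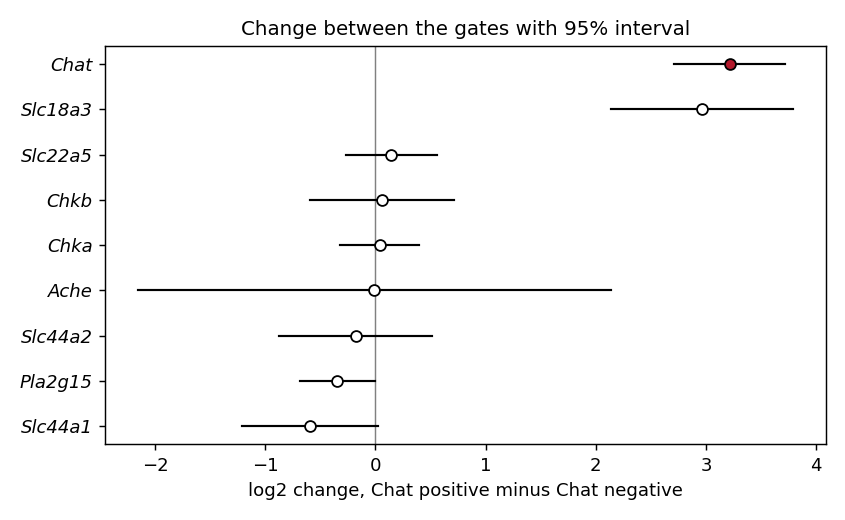
Log2 change of the 9 tested members between the gates (Chat positive minus Chat negative, x axis) with the 95% interval from edgeR's quasi-likelihood fit. The filled point is Chat, which passed an adjusted p of 0.05, and open points did not pass. Chat and Slc18a3 have intervals above 2, and Ache has the widest interval, from -2.16 to 2.13.

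Ache, whose enzyme ends acetylcholine action, passed the test between replicate numbers but not between gates (Entrez 11423, chromosome 5, 137288247 to 137294466). It had 4.65, 0.738 and 5.86 CPM in Chat positive libraries 1, 2 and 3, against 5.53, 0.645 and 5.12 CPM in Chat negative libraries 1, 2 and 3. In counts, number 2 held 38 in the Chat positive and 28 in the Chat negative library, while the other 4 libraries held 172 to 236. The gates overlapped throughout, with a log2 change of -0.01 (SE 0.91, 95% interval -2.16 to 2.13) and an edgeR adjusted p of 1.00, and the sign changed with the scaling. Within a number the gates were at most 1.19-fold apart.

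The mean over numbers 1 and 3 was 7.65-fold that of number 2 for Ache. For Slc44a2 it was 1.76-fold. In edgeR's test of the replicate number, chosen after the values were seen, Ache had an adjusted p of 2.02e-04 and Slc44a2 of 6.90e-05 (7.96e-04 and 5.31e-04 without robust dispersions). These 2 of 9 tested members passed, where 32.5% of all genes did (29.8% without robust dispersions). Of all tested genes, 23.4% were lower in both number 2 libraries than in the other 4, and 0.548% were so with a fold at least as large as that of Ache. The other members had adjusted p-values between 0.301 and 0.926 in that edgeR test.

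Some marker sums of other cell types moved with the same number, each resting on few genes. Mast cell and basophil markers, carried by Mcpt8, summed to 24.99 and 30.8 CPM in the number 2 libraries and to 124 to 203 CPM in the other 4. Mcpt4, Cpa3 and Tpsb2 of that list were at 0 in all libraries, and Fcer1a had at most 2 and Cma1 at most 7 counts in any library. The 7 myeloid markers, led by Cd68, summed to 9.22 and 9.55 CPM in number 2 and to 29.5 to 35.6 CPM in the others. Among them, Ly6g averaged 1.05 CPM in number 2 and 9.94 CPM in numbers 1 and 3. Lyz2, Csf1r and Fcgr1 had at most 5 counts in any library, and Itgam at most 17. Tuft and epithelial markers, led by Avil and Epcam, summed to 104 and 114 CPM in number 2 and to 160 to 213 CPM in the others. Neuron and glia markers lay the other way, at 10.7 and 13.6 CPM in number 2 and 3.77 to 5.35 CPM in the others, carried by Uchl1. Whether such cells were present, and their part in the Ache and Slc44a2 differences, was not tested. Among ILC2 markers, Il2ra averaged 5764 CPM in number 2 and 3906 CPM in numbers 1 and 3, while the cytokine gene Il5 lay the other way, at 6661 CPM in number 2 and 10315 CPM in numbers 1 and 3.

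**Figure D4:**
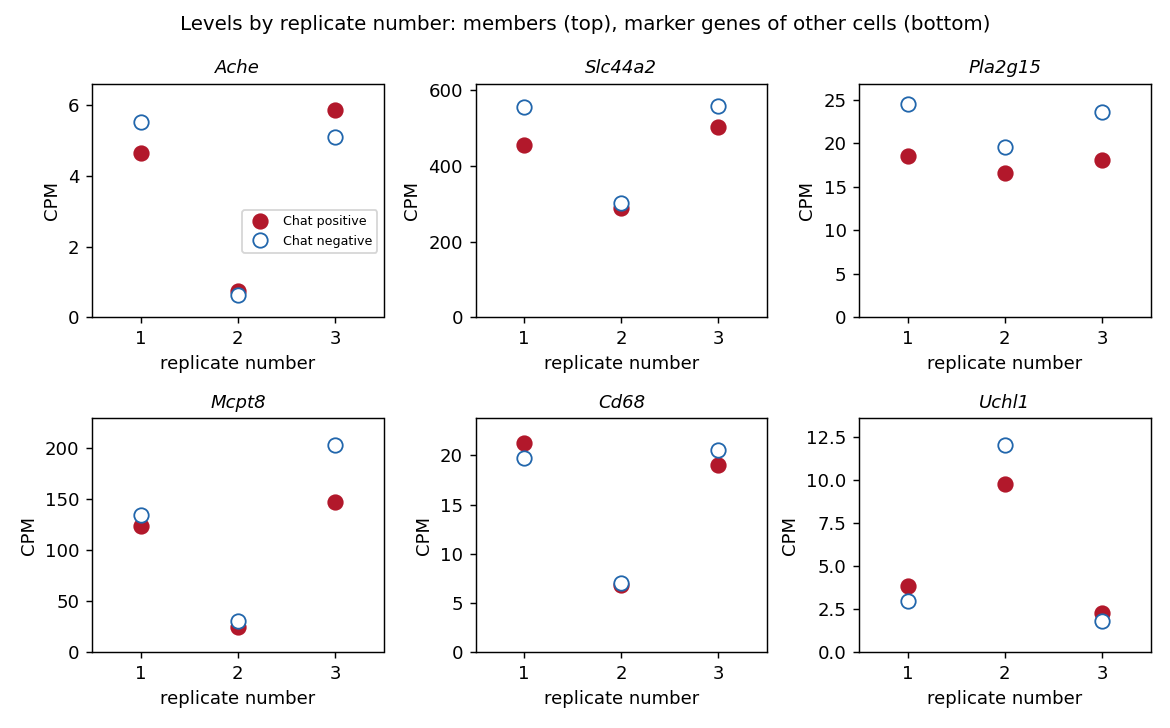
Level (CPM, linear axes from 0) by replicate number for 3 members (top row) and 3 marker genes of other cell types (bottom row), with filled red points for Chat positive and open blue points for Chat negative libraries. Number 2 is low in both gates for Ache, Slc44a2, Mcpt8 and Cd68 and high for Uchl1. Pla2g15 is lower in Chat positive cells at each number.

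The order of the members by level per kilobase differed between the gates mainly through Chat and Slc18a3. In Chat positive cells Slc44a2 (102 CPM per kilobase) was followed by Chat (65.5) with overlapping ranges, then by Slc18a3 (10.7), Pla2g15 (6.55), Slc22a5 (4.16), Slc44a1 (3.27), Chka (2.91), Chkb (1.31) and Ache (1.02). In that gate the ranges of Slc18a3 and Pla2g15, Slc22a5 and Slc44a1, Slc44a1 and Chka, and Chkb and Ache also overlapped. In Chat negative cells Slc44a2 (116) was followed by Pla2g15 (8.33), Chat (7.05), Slc44a1 (4.94), Slc22a5 (3.76), Chka (2.83), Slc18a3 (1.37), Chkb (1.25) and Ache (1.02). There the ranges of Pla2g15 and Chat, Chat and Slc44a1, and Slc44a1 and Slc22a5 overlapped. Those of Slc18a3, Chkb and Ache overlapped from each to the next in order as well. With all annotated exons as the length, Slc22a5 stood above Slc44a1 in Chat negative cells and Slc18a3 above Chka.

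Genes of connected pathways gave no call in either direction, in any of 11 lists. Over all 12967 tested genes, 0.00771% were called, which is Chat alone, so 0 calls do not set a list apart from other genes. The median log2 change of all tested genes was 0.0044, and 50.9% of them lay above 0. Acetylcholine receptors and their regulators were sparse, with 8 of 26 genes tested, 8 at 0 in all libraries, and 2 tested genes above and 6 below a log2 change of 0 (median -0.24, 0 called). Lynx1, which dampens nicotinic receptors, had 0.649, 1.44 and 1.04 CPM in Chat positive libraries, against 1.84, 1.89 and 1.67 CPM in Chat negative libraries. Chrna7, the subunit of the homomeric nicotinic receptor of immune cells, had 0 counts in every library and is named after its values were seen. The secreted cholinesterase gene Bche and the membrane anchor gene Prima1 were also at 0, and Colq, another anchor and the 1 tested gene of 3 in its list, had 0.211 ± 0.0990 CPM in Chat positive and 0.349 ± 0.233 CPM in Chat negative cells.

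Other choline transporters were led by Flvcr1, which takes choline into cells, at 32.2 ± 10.3 CPM in Chat positive and 34.6 ± 3.87 CPM in Chat negative cells (SD, n = 3 each). In that list 3 of 10 genes were tested and 0 called. The acetyl-CoA supply list had 4 genes above and 7 below 0 (11 tested, median -0.06, 0 called), and Acly, which makes cytosolic acetyl-CoA, was its most abundant gene. Phosphatidylcholine synthesis genes had 5 above and 8 below 0 (13 tested, median -0.01, 0 called). In that list Pemt, which methylates phosphatidylethanolamine to phosphatidylcholine, had 1.27, 1.77 and 1.29 CPM in Chat positive libraries, against 0.402, 0.899 and 0.833 CPM in Chat negative libraries. Its gates did not overlap, with a log2 change of 1.02 (SE 0.43) and an edgeR adjusted p of 1.00.

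Genes that release choline from phospholipids were split evenly, with 8 above and 8 below 0 (16 tested, 0 called). Among them Enpp2, the secreted lysophospholipase D autotaxin, had 16.9 ± 1.66 CPM in Chat positive and 12.9 ± 2.63 CPM in Chat negative cells (SD, n = 3 each). The lysosomal phospholipid list, which includes Pla2g15, had 5 above and 7 below 0 (12 tested, median -0.05, 0 called). Carnitine genes had 5 above and 2 below 0 (7 tested, median 0.06, 0 called), and vesicle and release genes 10 above and 6 below (16 tested, median 0.07, 0 called). In the choline oxidation list 1 of 6 genes was tested and 0 called. It was Chdh, which oxidises choline and had 6.09 ± 0.495 CPM in Chat positive and 8.91 ± 3.60 CPM in Chat negative cells. In the list of locus regulators 2 of 10 genes were tested, both below 0, with 0 called. Rest, a repressor of neuronal genes including the cholinergic locus, had 63.4, 61.3 and 59.2 CPM in Chat positive libraries, against 79.1, 68.9 and 66.4 CPM in Chat negative libraries. Its gates did not overlap, and its log2 change of -0.22 (SE 0.11) had an edgeR adjusted p of 1.00.

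**Figure D5:**
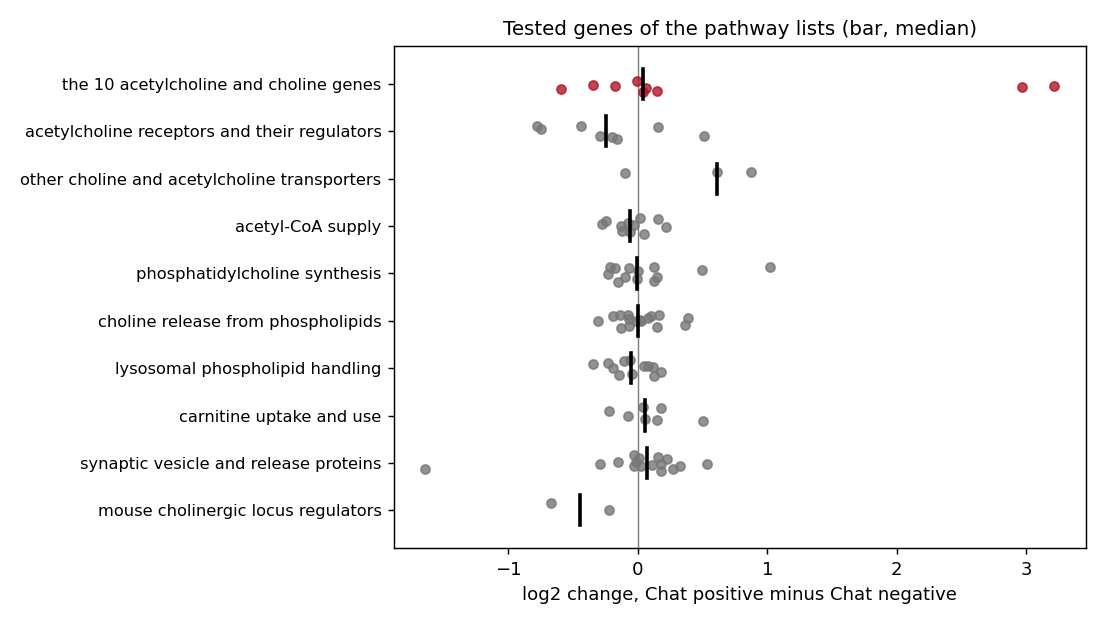
Log2 change between the gates (Chat positive minus Chat negative, x axis) of every tested gene in the 9 pathway lists with more than 1 tested gene and in the 10 acetylcholine and choline genes (red, top row). Black bars give medians. Chat and Slc18a3 are the only points above 2, and the lowest point, Sv2b at -1.64, had no library above 29 counts and an edgeR adjusted p of 1.00.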

How the data were processed

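RNA of 6 sorted ILC2 samples was sequenced from SMARTer ultra-low-input libraries, per the labels' protocols. Tools named in the submitters' processing notes are STAR 2.3.0 and CASAVA 1.8.2, with build mm10. The counting program and its strand setting are each not given in the sources used here. Ache, Slc44a1, Chka and Chkb share exon sequence with annotated genes on the opposite strand. The deposited table holds raw counts per gene, with no normalisation by the authors judging from whole numbers with different column sums.

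Of 27179 IDs, 25275 took symbols and coordinates from RefSeq GRCm38.p6, the assembly mm10 is made from. The other 1904 held at most 0.222% of a library's counts. Lengths are those of the longest GENCODE vM21 transcript. Genes kept by filterByExpr (12967) were tested with edgeR 4.0.16 in R 4.3.3 (TMM scaling, robust quasi-likelihood F-test, two-sided, Benjamini-Hochberg over all tested genes, threshold 0.05). Each log2 change is the Chat positive minus the Chat negative value, with SE and 95% intervals from the F statistic. DESeq2 1.42.0 and limma 3.58.1 gave alternatives. Scripts were tested on simulated data. Intervals and limits on counts of 0 cover counting or library spread only.

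Libraries with the same replicate number deviated together from their gate's mean (correlation across genes 0.27 for number 1, 0.65 for number 2, 0.41 for number 3) and were treated as pairs in the fit with the number as a block. This pairing comes from the data, not from a label. Chat positive 3 also correlated with Chat negative 1 (0.28), above the 0.27 of the number 1 pair, and Chat positive 1 with Chat negative 3 (0.18). The correlations thus set number 2 apart but do not establish numbers 1 and 3 as separate pairs.

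The members and the lists were chosen with earlier results of these data known. The naming rule took the 10 members, up to 4 tested genes of each pathway list by p and its most abundant gene, the genes within 250 kb of Chat, the 5 genes most like Chat, and the 2 most abundant genes of each marker list. Alternatives were RLE, upper-quartile and library-total scaling, no low-count filter, a stricter one (5 CPM or more in 3 or more libraries), the block, each library left out, DESeq2 and limma-voom with and without the block, and a fit that was not robust. Added after the data were seen were fits without both libraries of a number, the block without robust dispersions, the test of the number, exon-union lengths, and marker sums scaled by library totals or without number 2.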

Additional observations from a re-analysis of the deposited data

How the results depend on the processing

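The count of genes called between the gates was 1, and it became 44 with the replicate block, 3 in DESeq2, 452 in DESeq2 with the replicate block, 1 with the block in limma-voom or without robust dispersions, 0 without both libraries numbered 1 or 3, and 2 without both numbered 2. It ran from 0 to 1 when any library was left out. Members called numbered 1, also with the block in limma-voom or without robust dispersions, and 0 with the robust replicate block and without both libraries numbered 1 or 3, 2 in DESeq2 with or without the block and without both libraries numbered 2, and 0 to 1 when any library was left out. Chat kept its direction in every alternative run, with log2 changes of 3.09 to 3.46 when any library was left out, but did not pass with the replicate block (3.24) or without both libraries numbered 1 (3.08) or 3 (3.05). Slc18a3 passed in DESeq2 (2.96), in DESeq2 with the replicate block (2.94) and in edgeR without both libraries numbered 2 (3.49), and ran from 2.71 to 3.25 when any library was left out. On the log2 scale, the difference between gates in the ratio of Slc18a3 counts to Chat counts ran from -0.526 to -0.0736 when any library was left out. Slc44a1 and Pla2g15 were lower in Chat positive cells in every alternative run, without passing.

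Members that did not pass changed sign as follows. Ache was at 0.0048 with library totals, 0.0279 with the replicate block (robust or not), 0.0225 in DESeq2 with the block, 0.0048 in limma-voom with the block and 0.19 without both libraries numbered 1, and ran from -0.51 to 0.48 when any library was left out. Leaving out any library gave -0.42 to 0.0244 for Slc44a2, -0.0616 to 0.10 for Chka and -0.0488 to 0.30 for Chkb. Chka was at -0.0613 without both libraries numbered 3, Chkb at -0.0693 without both numbered 1 and Slc22a5 at -0.0188 without both numbered 2. The cause was not tested. Among 48 other named genes that are no cell type markers, 23 of 995 values changed sign, and Lpcat3 and Hemk1 passed in DESeq2 with the block. Of the named marker genes, Il5 passed with the replicate block (0.65), and Epcam (-0.49) and Mcpt8 (-0.30) in DESeq2 with the block. Of the remaining marker genes, Il1rl1 passed with the block in edgeR (0.55) and in DESeq2 (0.54). Areg (0.45), Il13 (0.49), Klrg1 (0.21) and Il7r (-0.23) passed in DESeq2 with the block. With any library left out, log2 changes ran from -0.28 to 0.0049 for Acly, -0.55 to 0.0010 for Chrnb1, -0.0425 to 0.13 for Lamp2, -0.32 to 0.0207 for Ly6e, -0.29 to 0.0133 for Pld3, -0.0704 to 0.0916 for Stxbp2, -0.40 to 0.0336 for Flvcr1, -0.52 to 0.33 for Ogdhl and -0.0415 to 0.36 for Aldh9a1. Stxbp2 was at -0.0030 with RLE scaling, -0.0041 in DESeq2, -0.0067 in DESeq2 with the block and -0.0259 without both libraries numbered 3. Without both libraries numbered 1 Chrna2 was at 0.0055, without both numbered 3 Chrnb1 was at 0.0655 and Flvcr1 at 0.0445, and without both numbered 2 Ogdhl was at 0.0618 and Colq at 0.0452. Chkb has no value under the stricter filter, which removes it.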

Other observations

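Some genes of the acetyl-CoA and phospholipid lists passed the test between replicate numbers. In edgeR's test of the number, 7 of 11 acetyl-CoA supply genes passed, where 32.5% of all tested genes did, as did 6 of 13 phosphatidylcholine synthesis, 6 of 16 choline release and 3 of 12 lysosomal genes. Acly had 1224 CPM in Chat positive 2 and 1283 CPM in Chat negative 2, and 887 to 1034 CPM in the other 4 libraries (edgeR adjusted p = 0.00105). Acss2, which makes acetyl-CoA from acetate, lay the other way, at 22.2 and 21.3 CPM in number 2 and 30.8 to 40.8 CPM in the others (edgeR adjusted p = 0.00454). Lpcat3, which remodels phosphatidylcholine, averaged 410 CPM in number 2 and 319 CPM in numbers 1 and 3 (edgeR adjusted p = 0.00144), and the lysosomal sphingomyelinase Smpd1 averaged 80.4 and 108 CPM (edgeR adjusted p = 0.00374). The labels do not say what the replicate numbers stand for.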
